A study of Homo sapiens with 18 samples.

Results

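The genes described here are 8 RNA-binding proteins that set the choice of alternative exons in epithelial and mesenchymal cells: ESRP1, ESRP2, RBM47, RBFOX2, QKI, MBNL1, MBNL2 and PTBP1. They were chosen by symbol from the 60642 gene symbols of a read count table covering 18 RNA sequencing libraries of 2 human colorectal cancer cell lines, and all 8 were found once. HT-29 iZEB1 is an HT-29 line carrying a doxycycline-inducible gene for ZEB1, a transcription repressor that drives the epithelial-mesenchymal transition (EMT). Its cells had DMSO alone, RepSox alone, doxycycline (DOX) plus DMSO, or DOX plus RepSox. SW620, a line from a lymph node metastasis that carries no induced ZEB1, was given DMSO or RepSox. Each of the 6 groups had 3 libraries. RepSox, an inhibitor of the kinase of the type I TGF-β receptor (ALK5), was given for 24 h at 10 µM. The DOX dose was 1 µg/ml, and the labels put its duration at 24 h in one place and 48 h in another. HT-29 cells lacking the inducible gene are not among the samples, so an effect of DOX itself and an effect of the induced gene cannot be told apart. The labels do not say whether the 3 libraries of a group came from separate cultures, so p-values reflect library-to-library spread that may be technical.

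Most human genes are transcribed into precursors from which different sets of exons can be kept, and proteins that bind near an exon decide whether it is kept. ESRP1 and ESRP2 are paralogs made in epithelial cells, where they impose the epithelial exon choice in transcripts such as FGFR2, CD44 and CTNND1, and ESRP1 is a known target of ZEB1 repression. RBM47 is another RNA-binding protein of epithelia, while RBFOX2 and QKI favour many of the exon choices of mesenchymal cells. MBNL1 and MBNL2, the muscleblind proteins, act in differentiated tissues, and PTBP1 is a broadly made repressor of exons. The table counts reads per gene, so it shows how much RNA of each regulator was made and not which exons were chosen.

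The libraries held between 36511596 and 39792807 counted reads. Levels below are counts per 1000000 counted reads (CPM) after scaling for library composition (TMM), and a gene was called changed at an adjusted p below 0.05 in edgeR's quasi-likelihood test with Benjamini-Hochberg adjustment over all genes tested. ZEB1 stood at 8.55 CPM ± 1.59 (SD, n = 3, as for every mean below) in HT-29 iZEB1 with DMSO, 5.38 ± 0.347 with RepSox, 378 ± 7.05 after DOX in DMSO, 16.0 ± 1.39 after DOX in RepSox, and 21.5 ± 2.54 and 23.7 ± 0.827 in SW620 with DMSO and RepSox. The ZEB1 counts do not separate the induced from the resident gene. CDH1, which encodes the epithelial adhesion protein E-cadherin and is repressed by ZEB1, stood at 469.5 ± 16.2, 385 ± 8.65, 232 ± 5.71, 350 ± 9.92, 9.97 ± 1.83 and 18.2 ± 0.352 CPM in the same order. Of 10 colorectal epithelial markers, 6 or 7 reached 1 CPM in every group, with EPCAM, KRT8, KRT18, KRT19 and VIL1 in both lines. KRT20 was at 0.187 CPM and CDX1 at 0 in SW620 with DMSO, and CDX1 was at 0.0943 CPM and CDX2 at 0.339 CPM in HT-29 iZEB1 with DMSO. The 10 epithelial markers summed to between 4208 and 4638 CPM in the libraries with DOX and DMSO, against 8257 to 9448 with DMSO in HT-29 iZEB1. They did not move as 1: DOX in DMSO called 6 lower and 1 higher, with log2 changes from -2.07 to 2.68. Of all genes tested, 21.1% were lower and 19.2% higher there. The part of these markers in the results below was not tested. The 10 fibroblast markers summed to at most 3.59 CPM in HT-29 iZEB1 and 13.5 CPM in SW620. The 9 leukocyte markers summed to 1315 to 1388 CPM with DMSO, 1123 to 1266 with RepSox, 1757 to 1783 after DOX in DMSO and 1193 to 1394 after DOX in RepSox, and to at most 4.83 CPM in SW620. Nearly all of this was LYZ, the lysozyme gene, with CD14 at 5.13 to 6.27 CPM on average as the only other marker of that list above 1 CPM in HT-29 iZEB1. The pan-leukocyte marker PTPRC was at most 0.167 CPM on average in any group and MS4A1 was at 0. The 7 endothelial markers summed to 39.7 to 67.5 CPM in HT-29 iZEB1, mostly ESAM, and to at most 5.61 CPM in SW620, with PECAM1 at most 0.880 CPM on average in HT-29 iZEB1. In bulk RNA, fewer cells of a kind and less RNA per cell cannot be told apart.

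With DOX in DMSO, 6 of the 7 regulators that had enough counts to be tested in HT-29 iZEB1 were called, 4 lower and 2 higher, where 40.4% of all 16978 genes tested were called, 19.2% higher and 21.1% lower. The epithelial regulators ESRP1, ESRP2 and RBM47 fell by different amounts, PTBP1 fell slightly, MBNL1 and RBFOX2 rose, and MBNL2 was not called. QKI, with no read in any of the 6 libraries compared, was not tested. Across the 7 genes the median log2 change was -0.32, against 0.00 over all genes tested.

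ESRP1 (GRCh38 chr8:94641074-94707466, plus strand) measured 328, 342 and 339 CPM in the DMSO libraries and 75.3, 77.0 and 82.7 CPM with DOX and DMSO. Every DOX library lay below every DMSO library. The groups did not overlap, in either direction, for 48.5% of all genes tested. The fall was 4.28-fold (log2 change -2.10, SE 0.06, adjusted p = 2.86e-15). ESRP2 (chr16:68229111-68238102, minus strand), the paralog of ESRP1, measured 117, 115 and 113 CPM with DMSO and 34.4, 39.9 and 43.2 CPM with DOX and DMSO. It fell 2.92-fold (log2 change -1.54, SE 0.08, adjusted p = 2.05e-11), again without overlap between the groups.

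**Figure D1:**
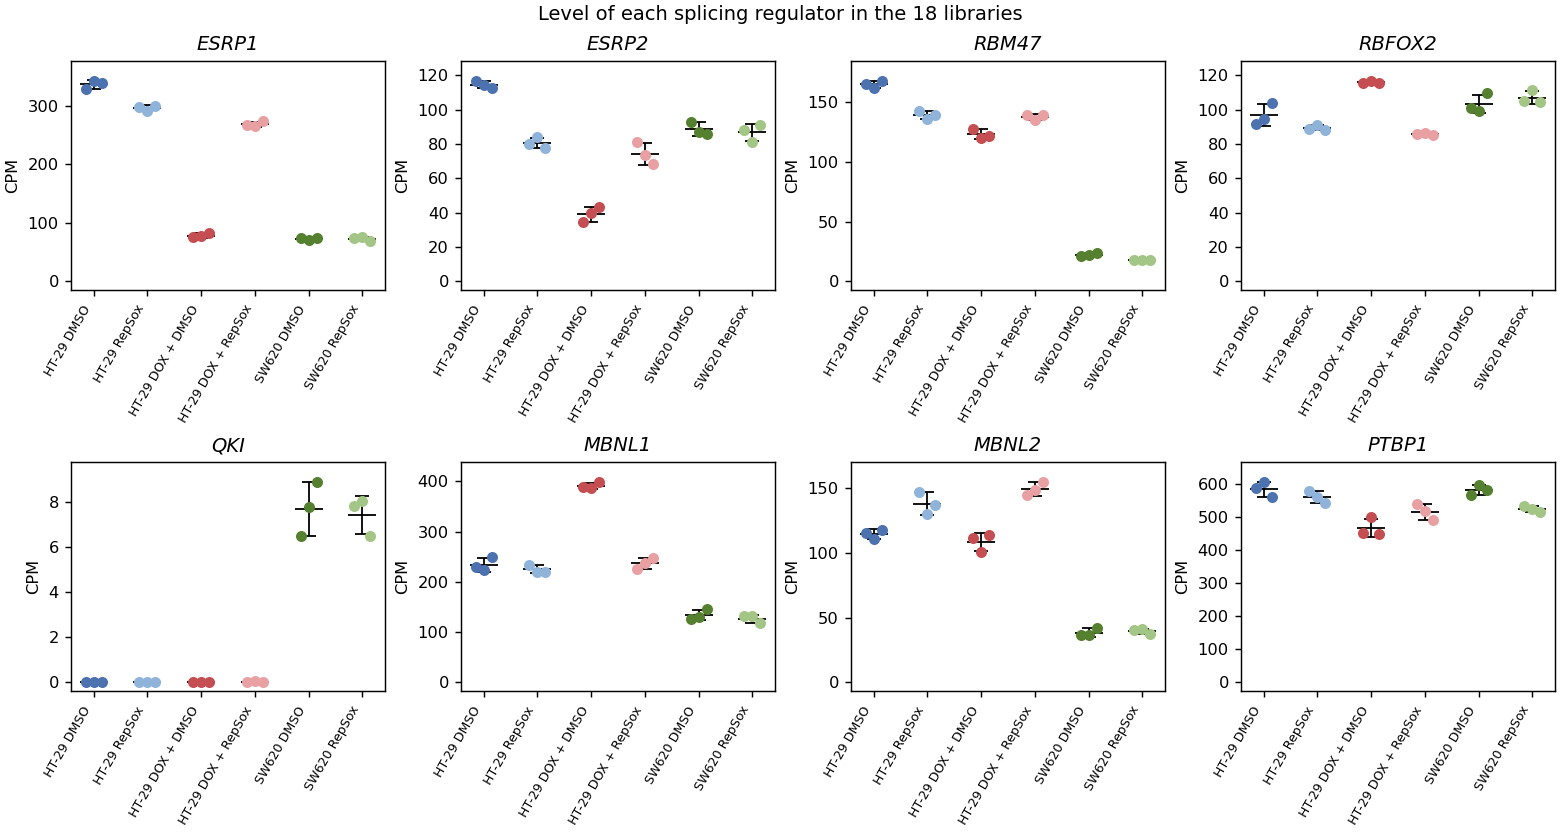
Level of each regulator in each library, in CPM on a linear axis from 0, by group (points, libraries; bars, mean ± SD of 3 libraries). ESRP1 drops from 336 to 78.3 CPM with DOX in DMSO and stands at 268 CPM with DOX and RepSox, MBNL1 moves the other way, and QKI is seen in SW620 and is at or near 0 in HT-29 iZEB1.

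Within single libraries the ratio of ESRP1 to ESRP2 counts, which no library scaling can change, was 2.94 on average with DMSO (2.81 to 3.01) and 2.01 with DOX and DMSO (1.92 to 2.19). The 2 sets of libraries did not overlap, so the mixture of the 2 paralogs shifted towards ESRP2 while both fell. Per kilobase of exon, the scale on which different genes can be compared, ESRP1 stood at 69.0 and ESRP2 at 20.6 CPM per kb with DMSO, and at 16.1 and 7.04 CPM per kb with DOX and DMSO.

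RBM47 (chr4:40423267-40630875, minus strand) measured 165, 161 and 168 CPM with DMSO and 128, 120 and 122 CPM with DOX and DMSO. Its fall of 1.33-fold was far smaller than that of the ESRP genes (log2 change -0.41, SE 0.05, adjusted p = 5.42e-06), though the libraries did not overlap. PTBP1 (chr19:797075-812327, plus strand), the most abundant of the 8 per kilobase in every group, measured 586, 605 and 559 CPM with DMSO and 453, 499 and 448 CPM with DOX and DMSO. This was a fall of 1.25-fold (log2 change -0.32, SE 0.06, adjusted p = 0.000357).

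MBNL1 (chr3:152243828-152465780, plus strand) rose, from 229, 223 and 249 CPM with DMSO to 388, 386 and 398 CPM with DOX and DMSO. The rise was 1.68-fold (log2 change 0.75, SE 0.06, adjusted p = 9.9e-09). MBNL2 (chr13:97221434-97394120, plus strand) measured 115, 110 and 118 CPM against 111, 100 and 114 CPM, and those libraries overlapped. Its log2 change was -0.08 with a 95% interval from -0.20 to 0.05 (adjusted p = 0.388). The 2 muscleblind genes therefore went from a count ratio of 2.04 (1.98 to 2.11) with DMSO to 3.61 (3.49 to 3.84) with DOX and DMSO, MBNL1 being the larger. RBFOX2 (chr22:35738736-36028425, minus strand) measured 91.7, 94.9 and 104 CPM with DMSO and 116, 117 and 115 CPM with DOX and DMSO. Its rise of 1.20-fold (log2 change 0.26, SE 0.06, adjusted p = 0.00116) kept the groups apart, and it took the ratio of ESRP1 to RBFOX2 counts from 3.48 (3.26 to 3.60) to 0.675 (0.650 to 0.716). RBFOX2 reads thus outnumbered ESRP1 reads in all 3 libraries with DOX and DMSO, and in none of the 3 with DMSO.

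ZEB1 binds the E-box CACCTG, so sequences at start sites of some of the members were searched for it as a description. Any part of such a match in the changes with DOX was not tested. RefSeq promoter windows of 300 bases (250 before and 50 after a start, GRCh38.p14) were searched for 4 members: RBM47 with 4 windows, MBNL1 with 3, and MBNL2 and PTBP1 with 2 each. No window of ESRP1, ESRP2, RBFOX2 or QKI was searched, so the search does not say whether their start sites hold the E-box. CACCTG, or CAGGTG on the same strand, occurred in 1 of these 11 windows, a window of RBM47, against 20.6% of all 35116 windows of that length. Below are the first 73 bases of that window, up to an annotated RBM47 exon (chr4:40514759-40514831, minus strand), with the E-box in capitals. With them are the first 218 bases of a window of MBNL1, the member that rose most, up to an annotated MBNL1 exon (chr3:152298764-152298981, plus strand). The MBNL1 bases hold no match, and the stretches differ in length.
RBM47: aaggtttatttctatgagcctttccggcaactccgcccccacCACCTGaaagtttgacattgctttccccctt
MBNL1: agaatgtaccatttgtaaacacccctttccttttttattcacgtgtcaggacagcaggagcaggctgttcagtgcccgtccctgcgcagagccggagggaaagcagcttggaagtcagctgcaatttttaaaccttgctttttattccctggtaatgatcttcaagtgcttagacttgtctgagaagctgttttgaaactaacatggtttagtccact
The match in RBM47 lies 208 bases before the start. It describes the letters only, since binding was not measured, and the counts do not say which RBM47 start was used.

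Adding RepSox to DOX moved 6 of the 7 genes tested, 4 higher and 2 lower, where 52.2% of all genes tested were called, 26.8% higher and 25.5% lower. The groups did not overlap for those 6 genes, nor for 55.4% of all genes tested. Each gene that DOX had lowered with a call, other than PTBP1, was higher with RepSox, and both genes that DOX had raised were lower. Both comparisons use the same DOX and DMSO libraries, so a value that is low by chance there is drawn into both. ESRP1 measured 266, 265 and 273 CPM with DOX and RepSox, 3.40-fold above DOX and DMSO (log2 change 1.77, SE 0.06, adjusted p = 3.67e-14). ESRP2 measured 80.9, 73.4 and 68.1 CPM, a rise of 1.88-fold (log2 change 0.91, SE 0.08, adjusted p = 2e-08). RBM47 measured 140, 135 and 139 CPM, only 1.11-fold higher (log2 change 0.15, SE 0.05, adjusted p = 0.0247). That call for RBM47 was lost without replicate 2 or 3 of DOX and DMSO (adjusted p = 0.0617 and 0.0762), without replicate 3 of DOX and RepSox (0.0909), without the low-count filter (0.0895) and with scaling by library totals (0.192).

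MBNL1 fell back to 226, 237 and 247 CPM with DOX and RepSox, 1.66-fold lower than with DOX and DMSO (log2 change -0.73, SE 0.06, adjusted p = 8.36e-09). RBFOX2 fell to 85.7, 86.3 and 85.4 CPM, 1.36-fold lower (log2 change -0.44, SE 0.06, adjusted p = 3.28e-06). MBNL2, not called with DOX, rose 1.37-fold to 144, 149 and 154 CPM (log2 change 0.45, SE 0.07, adjusted p = 1.11e-05). PTBP1 measured 539, 517 and 491 CPM, and its log2 change of 0.13 was not called (adjusted p = 0.0755). It was called without replicate 2 of DOX and DMSO (adjusted p = 0.0144), in the fit of all 18 libraries (0.028) and with a replicate block (0.0498).

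RepSox alone, without DOX, did not leave these genes where they were. Of the 7 tested, 3 fell and 1 rose, where 25.3% of all genes tested were called, 12.8% lower and 12.5% higher. Groups were fully apart for 5 of the 7, and for 43.7% of all genes tested. ESRP2 measured 80.2, 83.9 and 77.7 CPM and fell 1.43-fold (log2 change -0.52, SE 0.08, adjusted p = 8.18e-05), with every RepSox library below every DMSO library. RBM47 measured 143, 136 and 139 CPM and fell 1.19-fold (log2 change -0.25, SE 0.05, adjusted p = 0.00207). ESRP1 measured 297, 291 and 300 CPM, a log2 change of -0.19 (SE 0.05, adjusted p = 0.0137) that lost its call without the low-count filter (0.0543) and without replicate 2 of RepSox (0.0701). The epithelial regulators were thus lower under RepSox in cells without DOX and higher under RepSox in cells with DOX. MBNL2 rose 1.20-fold to 147, 130 and 136 CPM (log2 change 0.26, SE 0.06, adjusted p = 0.00629), in the same direction as with DOX. RBFOX2, MBNL1 and PTBP1 had log2 changes of -0.12, -0.06 and -0.07 and were not called (adjusted p = 0.134, 0.49 and 0.473).

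**Figure D2:**
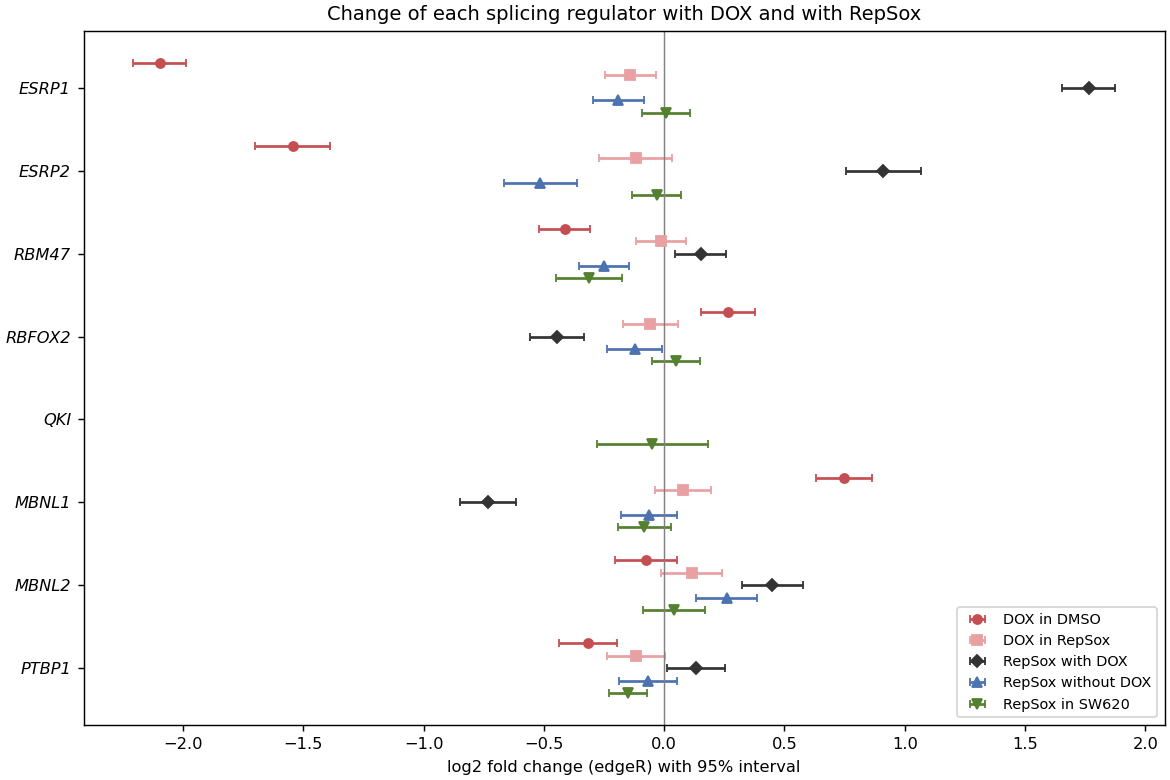
Log2 fold change (edgeR) of each regulator in 5 comparisons, as points with 95% intervals calculated from the change and its F statistic. The comparisons are DOX in DMSO, DOX in RepSox, RepSox with DOX and RepSox without DOX in HT-29 iZEB1, and RepSox in SW620. ESRP1 and ESRP2 show the widest spread between comparisons, from -2.10 to 1.77 and from -1.54 to 0.91, and QKI has a value only in SW620.

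In cells that also had RepSox, DOX called none of the 7 genes, where 0.477% of all genes tested, 81 genes, were called, 0.0942% higher and 0.383% lower. In 3 of the 7 the groups did not overlap, as in 16.6% of all genes tested. Only 1 of the 7 had an unadjusted edgeR p below 0.05, ESRP1, and DESeq2 also called 0 of the 7. The log2 change of ESRP1 was -0.14 with a 95% interval from -0.25 to -0.03 (adjusted p = 0.271), so a fall of the size seen in DMSO lay far outside the interval. For ESRP2 it was -0.12 (-0.27 to 0.03, adjusted p = 0.498). The other 5 genes had log2 changes between -0.12 and 0.12. A test of the difference itself, the DOX change in RepSox minus the DOX change in DMSO, called 5 of the 7, 3 higher and 2 lower, where 22.6% of all genes tested were called, 13% higher and 9.61% lower. The difference was 1.96 for ESRP1 (SE 0.08, adjusted p = 4.75e-12), 1.43 for ESRP2 (SE 0.11, adjusted p = 2.86e-08), 0.40 for RBM47 (SE 0.08, adjusted p = 0.000751), -0.67 for MBNL1 (SE 0.08, adjusted p = 1.09e-05) and -0.32 for RBFOX2 (SE 0.08, adjusted p = 0.00773), all on the log2 scale. MBNL2 (0.19, adjusted p = 0.151) and PTBP1 (0.20, adjusted p = 0.107) were not called. ZEB1 itself moved with these results, at 16.0 CPM with DOX and RepSox against 378 CPM with DOX and DMSO, and its part in them was not tested.

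Cells with both agents were set against cells with neither to see how far each regulator lay from its starting level. Of the 7 genes, 5 were lower and 1 higher, where 26.2% of all genes tested were called, 13.6% lower and 12.6% higher. The groups did not overlap for 6 of the 7, and for 38.8% of all genes tested. ESRP2 stood at 74.2 CPM ± 6.44 against 115 ± 2.01, 1.55-fold lower (log2 change -0.63, adjusted p = 8.08e-06). ESRP1 stood at 268 ± 4.24 against 336 ± 7.16 CPM (log2 change -0.33, adjusted p = 0.000162) and RBM47 at 138 ± 2.37 against 165 ± 3.11 CPM (log2 change -0.26, adjusted p = 0.00131). MBNL2 was higher, at 149 ± 5.13 against 115 ± 3.78 CPM (log2 change 0.37, adjusted p = 0.000292). MBNL1 did not differ beyond its spread, at 237 ± 10.6 against 233 ± 13.5 CPM (log2 change 0.02, 95% interval -0.10 to 0.13, adjusted p = 0.875). The calls of RBFOX2 (-0.18, adjusted p = 0.0276) and PTBP1 (-0.18, adjusted p = 0.0315) were lost under 4 alternatives each, leaving out single libraries among them, with adjusted p up to 0.151 and 0.136. With the 2 ESRP genes at different distances from the start, their count ratio was 3.64 (3.29 to 4.01) with both agents and 3.68 (3.47 to 3.86) with RepSox alone, both above the 2.94 with DMSO.

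**Figure D3:**
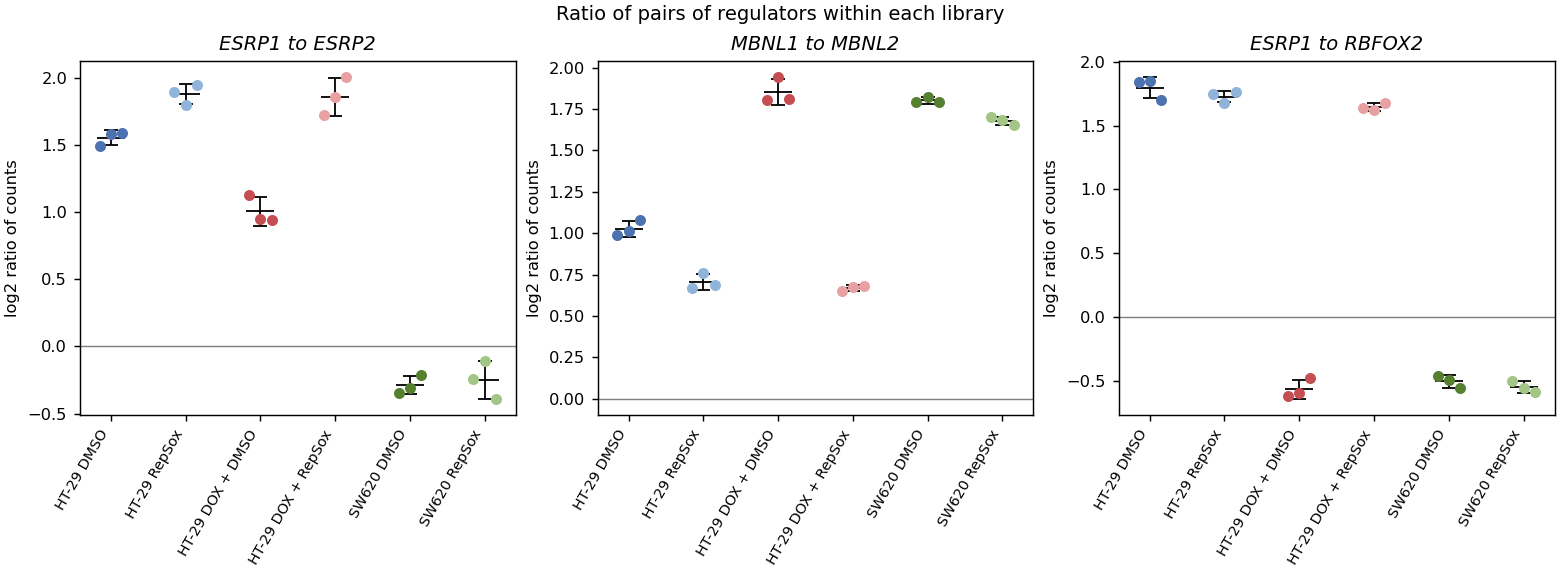
Log2 ratio of read counts within each library for ESRP1 to ESRP2, MBNL1 to MBNL2 and ESRP1 to RBFOX2, by group (points, libraries; bars, mean ± SD of 3 libraries; 0 marks equal counts). ESRP1 exceeds ESRP2 in every HT-29 iZEB1 library and lies below it in every SW620 library, and ESRP1 lies below RBFOX2 with DOX and DMSO and in SW620.

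In SW620, RepSox called 2 of the 8 genes, both lower, where 19.5% of all 17147 genes tested were called, 9.24% lower and 10.2% higher. Those 2 were also the genes whose groups did not overlap, as in 33.9% of all genes tested. RBM47 measured 21.5, 21.8 and 23.5 CPM with DMSO and 18.3, 17.5 and 17.9 CPM with RepSox. It fell 1.24-fold without overlap (log2 change -0.31, SE 0.07, adjusted p = 0.00205). PTBP1 measured 567, 597 and 580 CPM against 534, 523 and 514 CPM (log2 change -0.15, SE 0.04, adjusted p = 0.00991), and its call was lost without replicate 2 of DMSO (0.0678) or replicate 3 of RepSox (0.054). ESRP1 measured 73.4, 70.4 and 74.3 CPM against 74.3, 75.4 and 69.6 CPM, and the 95% interval of its log2 change of 0.01 ran from -0.09 to 0.11. ESRP2 measured 93.1, 87.2 and 85.9 CPM against 88.1, 81.5 and 91.1 CPM, with a log2 change of -0.03 (-0.13 to 0.07). These intervals leave room for only small changes of the ESRP genes with RepSox in this line. RBFOX2, MBNL1, MBNL2 and QKI had log2 changes of 0.05, -0.08, 0.04 and -0.05 and were not called. CDH1 and ZEB1 levels in these libraries are given above.

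The response to RepSox was compared between the lines directly, as the change in SW620 minus the change in HT-29 iZEB1 without DOX. Of the 7 genes other than QKI, only ESRP2 was called, where 10.4% of the 19107 genes tested were called, 5.39% with a higher and 4.99% with a lower response in SW620. Its response was higher in SW620 by 0.48 on the log2 scale (SE 0.10, adjusted p = 0.00247). For ESRP1 the difference was 0.19 (adjusted p = 0.0934, but 0.00488 in DESeq2), and RBM47, which fell in both lines, had a difference of -0.07 (adjusted p = 0.643).

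The lines were compared without treatment, leaving QKI, which was at 0 in HT-29 iZEB1, to be described by its counts below. Against HT-29 iZEB1 with DMSO, SW620 with DMSO had 5 lower and 0 higher of the other 7 genes, where 76.6% of all genes tested were called, 36.5% lower and 40.1% higher. Groups did not overlap for 5 of the 7, and for 79% of all genes tested. That share over all genes is so large that a call on its own says little, and each line is a single line. RBM47 was 7.41-fold lower in SW620 (22.2 ± 1.09 against 165 ± 3.11 CPM, log2 change -2.89, adjusted p = 6.72e-24). ESRP1 was 4.63-fold lower (72.7 ± 2.04 against 336 ± 7.16 CPM, log2 change -2.21, adjusted p = 4.83e-22), while ESRP2 was only 1.29-fold lower (88.7 ± 3.82 against 115 ± 2.01 CPM, log2 change -0.37, adjusted p = 5.56e-05). The count ratio of ESRP1 to ESRP2 in SW620 was accordingly 0.820 (0.788 to 0.865), with ESRP2 the larger in all 6 SW620 libraries and ESRP1 the larger in all 12 HT-29 iZEB1 libraries. MBNL2 was 2.98-fold lower (38.5 ± 3.30 against 115 ± 3.78 CPM, adjusted p = 9.95e-17) and MBNL1 1.74-fold lower (134 ± 10.7 against 233 ± 13.5 CPM, adjusted p = 1.45e-11). RBFOX2 (log2 change 0.09, adjusted p = 0.13) and PTBP1 (-0.01, adjusted p = 0.923) were not called. Scaling by library totals called both, RBFOX2 at 0.22 (adjusted p = 0.00157) and PTBP1 at 0.12 with its sign turned (adjusted p = 0.0406).

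QKI (chr6:163414000-163578596, plus strand), whose protein binds introns of many transcripts and also promotes the making of circular RNAs, was seen in 1 line only. It had 0 counts in 11 of the 12 HT-29 iZEB1 libraries and 3 counts in replicate 2 of DOX and RepSox. In SW620 it had 254, 302 and 353 counts with DMSO (6.48, 7.76 and 8.88 CPM) and 302, 313 and 246 counts with RepSox (7.83, 8.03 and 6.48 CPM). Taking 3 counts over the group as the limit that a count of 0 allows, QKI was at least 273-fold higher in SW620 with DMSO than in HT-29 iZEB1 with DMSO. Against DOX and DMSO it was at least 306-fold higher, and no QKI read was counted in any of those 3 libraries. QKI passed the low-count filter between the lines only through SW620, where it is high, so no test of it is given. Even there it was the least abundant of the 8 per kilobase, at 0.444 CPM per kb against 14.9 for ESRP1 in SW620 with DMSO.

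SW620 was also set against HT-29 iZEB1 with DOX and DMSO, where the level of ESRP1 was close. ESRP1 stood at 72.7 ± 2.04 CPM in SW620 and 78.3 ± 3.90 CPM with DOX (log2 change -0.11, 95% interval -0.21 to -0.01, adjusted p = 0.0598), a difference that was not called here but was called in DESeq2 (0.0105), with DESeq2's size factors (0.0339) and without any 1 of 4 libraries (0.00734 to 0.022). The other epithelial regulators were not close: ESRP2 was 2.27-fold higher in SW620 (adjusted p = 1.95e-13) and RBM47 was 5.54-fold lower (adjusted p = 1.17e-22). Both muscleblind genes were lower in SW620, MBNL1 2.91-fold (adjusted p = 2.62e-17) and MBNL2 2.82-fold (adjusted p = 2.63e-16). PTBP1 was 1.25-fold higher (adjusted p = 7.55e-06), and RBFOX2 was lower by a log2 change of -0.17 (adjusted p = 0.00811; 0.0575 with library totals and 0.0552 with a replicate block). Leaving QKI aside, 6 of 7 were called, 2 higher and 4 lower, where 78.5% of all genes tested were, 41.6% higher and 36.8% lower. The groups did not overlap for any of the 7, as was so for 79.1% of all genes tested. The ratio of ESRP1 to RBFOX2 counts was 0.675 (0.650 to 0.716) with DOX and 0.704 (0.678 to 0.725) in SW620 with DMSO, with overlapping libraries. The ratio of MBNL1 to MBNL2 also overlapped, at 3.61 (3.49 to 3.84) and 3.49 (3.46 to 3.54), while that of ESRP1 to ESRP2 did not.

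**Figure D4:**
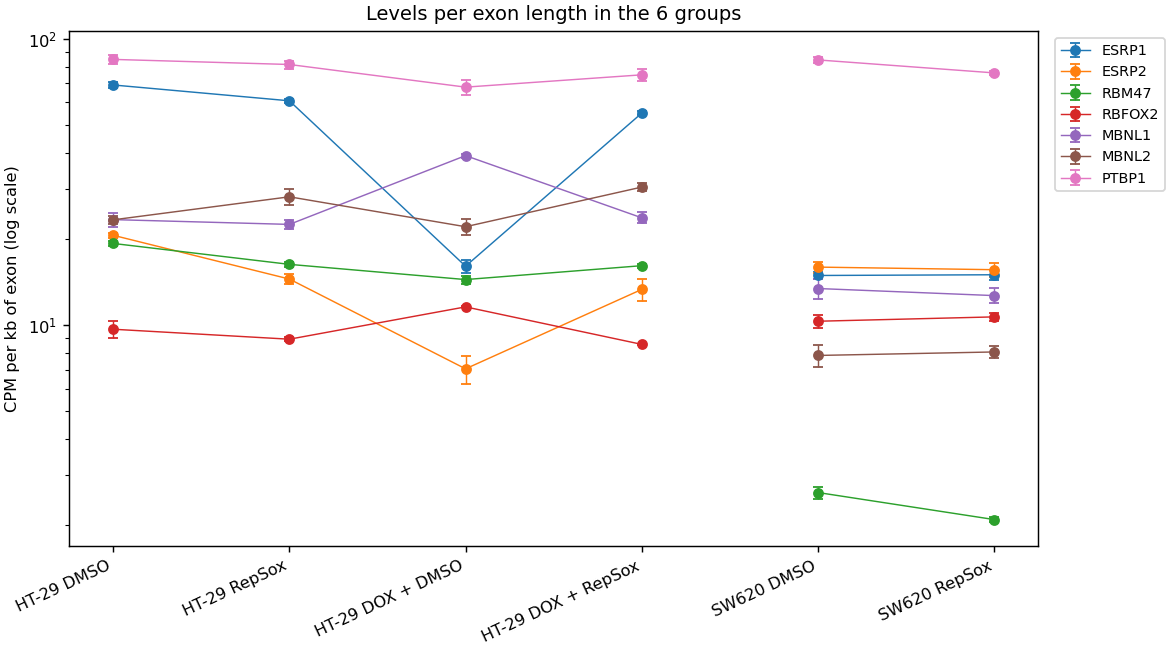
Level per kilobase of exon (CPM per kb, log axis) of 7 regulators in the 6 groups, as mean ± SD of 3 libraries; lines join groups of 1 cell line and QKI, which is at or near 0 in HT-29 iZEB1, is left out. ESRP1 goes from below PTBP1 alone in HT-29 iZEB1 with DMSO (69.0) to below PTBP1, MBNL1 and MBNL2 with DOX and DMSO (16.1), and RBM47 is the lowest drawn in SW620 (2.60 with DMSO and 2.10 with RepSox).

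The order of the 8 genes per kilobase therefore changed with DOX and between the lines. With DMSO in HT-29 iZEB1 it ran PTBP1 (84.8 CPM per kb), ESRP1 (69.0), MBNL1 (23.4), MBNL2 (23.3), ESRP2 (20.6), RBM47 (19.3), RBFOX2 (9.68) and QKI (0), and MBNL1 and MBNL2 lay within their SDs of 1.35 and 0.770. With DOX and DMSO it ran PTBP1 (67.8), MBNL1 (39.1), MBNL2 (22.1), ESRP1 (16.1), RBM47 (14.4), RBFOX2 (11.6) and ESRP2 (7.04). In SW620 with DMSO it ran PTBP1 (84.4), ESRP2 (16.0), ESRP1 (14.9), MBNL1 (13.4), RBFOX2 (10.3), MBNL2 (7.84), RBM47 (2.60) and QKI (0.444), and the SDs of ESRP2 (0.686) and ESRP1 (0.419) overlapped.

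The genes most like the epithelial regulators across the 12 HT-29 iZEB1 libraries were ranked by Pearson's r of log2(CPM + 1) among 10531 genes with a mean of at least 5 CPM, as a description. These libraries share 4 treatment groups, so an r near 1 says little beyond the same order of groups. For ESRP1 they were EPCAM (0.997), an epithelial adhesion molecule, RAB25 (0.996), a small GTPase of epithelial membrane traffic, and GRHL2 (0.996), a transcription factor of epithelial identity. EPCAM stood at 654, 606, 199 and 556 CPM and RAB25 at 143, 133, 30.0 and 112 CPM with DMSO, RepSox, DOX and DMSO, and both agents. For ESRP2 they were VIL1 (0.995), which encodes villin of the brush border, CDH1 (0.990) and COL17A1 (0.990). VIL1 at 93.0, 57.8, 22.1 and 51.0 CPM shared with ESRP2 the lower level under RepSox alone. For RBM47 they were MPZL3 (0.996), ANKRD22 (0.975) and CRYBG2 (0.974). Among the members themselves, r with ESRP1 was 0.94 for ESRP2 and -0.98 for MBNL1.

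Genes related to the members by family or function were counted in the same comparison, for which 40.4% of all genes tested were called, 19.2% higher and 21.1% lower. Of 5 paralogs of the members tested in HT-29 iZEB1, DOX in DMSO called 2 higher and 0 lower, MBNL3 (1.18-fold, adjusted p = 0.0497) and KHDRBS1 (1.14-fold). Of 21 other RNA-binding splicing regulators, 4 were higher and 5 lower, among them TRA2B, which promotes exon inclusion, 1.30-fold lower (adjusted p = 1.99e-05) and TIA1 1.30-fold higher. Of 16 SR proteins and their kinases, 2 were higher and 6 lower, led by SRSF7, 204 CPM with DMSO and 136 CPM with DOX and DMSO (1.5-fold lower, adjusted p = 7.83e-08), with SRPK1 and SRSF2 lower by 1.33-fold and 1.32-fold. Of 19 hnRNP proteins, the family to which PTBP1 belongs, 1 was higher and 9 lower, including HNRNPD, SYNCRIP, HNRNPF and HNRNPL by 1.20-fold to 1.24-fold. Median log2 changes of these 4 lists were 0.10, -0.10, -0.09 and -0.13, against 0.00 over all genes. With RepSox added to DOX the hnRNP list had 9 higher and 2 lower and the SR list 5 higher and 4 lower. Of all genes tested, 26.8% were higher and 25.5% lower there. With DOX in RepSox the 4 lists had 0 calls, where only 0.477% of all genes tested were called. In SW620, RepSox called 8 of 19 hnRNP genes lower and 0 higher, where 9.24% of all genes tested were lower, such as HNRNPA1, 2402 CPM with DMSO and 1881 CPM with RepSox (1.28-fold lower).

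Of 28 genes whose exons ESRP proteins are known to regulate, 8 were higher and 5 lower with DOX in DMSO, with a median log2 change of 0.04, and 40.4% of all genes tested were called. FGFR2, which carries the best-known ESRP-dependent pair of exons, fell 1.65-fold, from 38.8 to 23.4 CPM (adjusted p = 2.31e-07), and GRHL1 fell 2.09-fold, from 19.9 to 9.52 CPM. TCF7L2, a Wnt pathway transcription factor, rose 1.62-fold, from 65.3 to 105 CPM. With RepSox added to DOX, 9 of the 28 were higher and 13 lower, where 52.2% of all genes tested were called. In SW620, 7 of 26 tested were higher and 3 lower with RepSox, where 19.5% of all genes tested were called, among them ITGA6 (334 to 471 CPM, 1.41-fold) and CD44 (22.0 to 26.4 CPM, 1.20-fold). These are levels of the whole genes, and their exon choice was not analysed here.

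How far reads could have been shared with other genes was checked on the annotated transcripts. No run of 50 bases was shared between any of the 8 genes. Of the runs of MBNL1, 13.4% also occur in another gene's transcripts on either strand, mainly MBNL1-AS1, an antisense gene that overlaps 1140 bases of its exons, but the reads of MBNL1-AS1 came to at most 0.928% of those of MBNL1. For ESRP2 the share was 2.13%, with 149 exon bases overlapping NFATC3 on the other strand. NFATC3 is a well-expressed gene, and its reads over its whole length came to up to 103% of those of ESRP2 in a library, so that how many of its reads fell in the shared bases cannot be told from gene counts. For the other 6 genes it was below 1%. Whether the counting used strand is not given in the sources used here, so reads of such overlaps could not be assigned with certainty.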

How the data were processed

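The deposited table holds read counts per gene symbol for 18 libraries (mRNA, BGISEQ-500), made by the authors. The submitters' processing notes name FastQC 0.11.9, HISAT2 2.2.0, featureCounts 2.0.0, DESeq2 1.34.0 and GRCh38.p13; the sources used here give no strand setting and no gene annotation. The deposited counts were tested with edgeR 4.0.16 (quasi-likelihood F test, TMM, filterByExpr with a minimum count of 10, R 4.3.3): 12 HT-29 iZEB1 libraries in 1 fit, 6 SW620 libraries in another, and all 18 for comparisons between lines. A call needed an adjusted p below 0.05. Standard errors come from the log2 change and its F statistic. The 95% intervals are normal intervals from these errors, somewhat narrower than the F test implies. CPM use the scaling of all 18 libraries, so ratios of CPM differ slightly from fitted folds. Positions and exon lengths are from GENCODE 29 (GRCh38). Intervals on counts cover counting error only. The fit was tested on simulated counts. Alternatives were DESeq2 1.42.0, other scaling, no filter, 1 fit of all libraries, a replicate block and leaving out each library. From each related list up to 4 called genes with the largest change in DOX in DMSO or RepSox in SW620 could be named, at 5 CPM or more; FGFR2, GRHL1 and the rest follow that rule. Members and lists were chosen with earlier results of these data known.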

Additional observations from a re-analysis of the deposited data

Results flagged for a closer look

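The change with DOX differed between cells in DMSO and cells in RepSox for 5 of the 7 regulators tested, by a test of that difference (edgeR, Benjamini-Hochberg adjustment). Of all genes tested, 22.6% were called in that test, 13% higher and 9.61% lower. On the log2 scale the difference was 1.96 for ESRP1, 1.43 for ESRP2 and 0.40 for RBM47, whose falls were not called in RepSox. It was -0.67 for MBNL1 and -0.32 for RBFOX2, whose rises were not called in RepSox. ZEB1 stood at 378 CPM with DOX and DMSO and 16.0 CPM with DOX and RepSox, and its part in these differences was not tested.

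The response of ESRP2 to RepSox differed between the lines by 0.48 on the log2 scale: it fell in HT-29 iZEB1 without DOX (log2 change -0.52) and was not called in SW620 (-0.03). ESRP2 was the only member called in that test, where 10.4% of all genes tested were called.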

How the results depend on the processing

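Of 71 results tested for the members, 59 kept their side of the threshold under every alternative run, with a change of sign only where the value was called neither before nor after. Of 907 values under alternatives, 19 lost a call, 12 gained one, and 1 changed sign with a call: PTBP1 in SW620 against HT-29 iZEB1, 0.12 with library totals. Library totals moved the median of all genes in that comparison from 0.06 to 0.18. With library totals, the share of higher calls went from 47.6% to 59.5% for DOX in DMSO, from 57.4% to 47.0% for the difference of DOX changes, and from 52.5% to 39.5% for RepSox in SW620. The 81 genes called for DOX in RepSox became 264 with DESeq2, 584 without the low-count filter and 162 in the fit of all 18 libraries, and 27 to 1670 when 1 library was left out (1670 without replicate 1, and 27 without replicate 2, of DOX and RepSox); the cause was not tested. Whether the replicate numbers pair the libraries could not be told. In HT-29 iZEB1, correlations of deviations ran from -0.36 to 0.22 for same-numbered libraries and from -0.36 to 0.41 for others. Of these, 6 of 18 same-numbered and 7 of 36 other pairs were above 0.1. In SW620 the ranges were -0.13 to 0.00 and -0.08 to 0.10. With a replicate block, DOX in DMSO called 6955 genes against 6853, and RepSox in SW620 2848 against 3338. QKI could not be tested in HT-29 iZEB1 alone.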

Other observations

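The neighbourhood of QKI on chromosome 6 was read out in both lines. Of the 24 genes of the count table annotated within 2 Mb on each side, QKI included, 16 had 0 counts in all 12 HT-29 iZEB1 libraries and 15 had 0 counts in both lines. PDE10A, a cyclic nucleotide phosphodiesterase, had 16603 counts over the HT-29 iZEB1 libraries and 1 over the 6 SW620 libraries. QKI had 3 and 1770. QKI was thus the gene of this stretch with the most reads in SW620, and PDE10A the one with the most in HT-29 iZEB1.

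FGFR2, an ESRP-regulated transcript, was raised by RepSox both without DOX (1.62-fold, edgeR adjusted p = 1.13e-06) and with DOX (2.55-fold, edgeR adjusted p = 3.29e-11). Without DOX, ESRP1 and ESRP2 were lower with RepSox (log2 changes -0.19 and -0.52), and the ESRP1 call was lost under some alternatives. With DOX, ESRP1 and ESRP2 were higher with RepSox, 3.40-fold and 1.88-fold, in the same direction as FGFR2.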
